A study of Homo sapiens with 4 samples.

Results

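The genes described here are 9 interleukin and colony-stimulating factor genes, IL6, IL1A, IL1B, IL11, IL18, IL32, LIF, CSF1 and CSF2, in Panc1 cells, an established human pancreatic cancer line. They were chosen by symbol, and every probe set that the platform annotation pairs with one of them alone was taken. This gave 14 probe sets for 8 of the 9 genes, among 19775 genes with such a probe set. No probe set was paired with CSF2 alone in the annotation used, and its RNA was not analysed here. The 4 samples were Panc1 cells given romidepsin plus tamoxifen (the combination), romidepsin alone or tamoxifen alone, each for 24 hours, and untreated cells, with 1 Affymetrix array each. Romidepsin inhibits histone deacetylases, and tamoxifen binds the estrogen receptor, blocking it in some tissues. The sources used here give no doses and do not say whether untreated cells received a vehicle. With 1 array per condition there is no replicate spread and no test between conditions, so every fold below describes these 4 samples of 1 line.

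Interleukins and colony-stimulating factors are secreted proteins through which cells act on receptors of their neighbours or on their own. IL6, IL11 and LIF belong to the IL-6 family, whose receptors share the subunit IL6ST and signal through JAK kinases and STAT3. IL1A, IL1B and IL18 belong to the IL-1 family, whose receptors signal through MYD88 and IRAK kinases. The precursors of IL1B and IL18 are cut by caspase-1. CSF1 maintains macrophages, and CSF2 promotes granulocytes and macrophages. In pancreatic tumours such factors are known as signals between cancer cells, fibroblasts and immune cells.

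Signals are MAS5 intensities on a linear scale, and all were set against a floor of 66.4, the median of all non-control signals. Values under the floor have no order, and a fold against one is a bound, written as at least. A gene was measured in a comparison where at least 1 of its 2 arrays lay above the floor, and it rose or fell where the signals then differed by at least 2-fold. Each gene is represented by its brightest probe set on average, and the other probe sets are given beside it. By that choice 5 of the 8 genes were above the floor on all arrays, IL32 and CSF1 on some, and IL1A on none. Disagreement between probe sets can be gauged from genes with a second one, where both lay above the floor on both arrays. Their log2 folds differed by a median of 0.25 to 0.33 in the 5 comparisons. The 90th percentiles of that difference lay between 0.74 and 1.0. These figures leave out differences that both probe sets share, such as array scaling, and variation between cultures.

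Some whole-array measures moved with the conditions. For the actin control, signal at the 3′ end over that at the 5′ end, which rises as RNA degrades, was 1.73 for the combination, 1.18 for romidepsin, 1.39 for tamoxifen and 1.21 for untreated cells. The same ratio for the GAPDH control varied little, at 1.07 for the combination, 1.03 for romidepsin, 1.04 for tamoxifen and 1.07 for untreated cells. Relative to the untreated array, the spike-ins lay at 0.819 times for the combination, 1.01 times for romidepsin and 0.781 times for tamoxifen. Their part in the results was not tested. The keratins KRT8 and KRT18 had signals of at least 4153 on every array, while KRT19 was below the floor at its brightest probe set. Of the 6 leukocyte markers with a probe set, PTPRC, CD3E, CD14 and LYZ were below the floor on all arrays, TYROBP was above it with romidepsin only, and CD79A lay between 72.9 and 209. Summed over the 6 epithelial markers, the signal was 17054 for the combination, 32349 for romidepsin, 23533 for tamoxifen and 35589 for untreated cells. KRT8 and KRT18 carry most of that sum. EPCAM and CDH1 went the other way: EPCAM was at least 5.96-fold higher with romidepsin and at least 7.15-fold higher in the combination than in untreated cells, and CDH1 was 4.61-fold and 3.93-fold higher. The summed leukocyte marker signal was 316 for the combination, 293 for romidepsin, 379 for tamoxifen and 246 for untreated cells. Of 5 fibroblast markers, COL1A2, PDGFRB and LUM were below the floor on all arrays, and COL1A1 and DCN were above it, with sums of 6502 for the combination, 9956 for romidepsin, 9339 for tamoxifen and 9394 for untreated cells. The 3 endothelial markers summed to 249 for the combination, 236 for romidepsin, 165 for tamoxifen and 129 for untreated cells. As in any bulk sample, fewer cells making an RNA and less RNA per cell cannot be told apart.

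LIF, a cytokine of the IL-6 family that acts through LIFR and IL6ST, was far lower wherever romidepsin was given. Its probe set 205266_at had a signal of 111 in the combination, 133 with romidepsin, 1233 with tamoxifen and 1099.5 in untreated cells. Both arrays with romidepsin were low and both without it were high. LIF was 8.24-fold lower with romidepsin than in untreated cells, a log2 fold of -3.04, and 9.88-fold lower in the combination than in untreated cells. Set against tamoxifen alone, the combination was 11.1-fold lower. Among 13619 genes measured for romidepsin against untreated cells, LIF ranked 23 from the lowest. The call held under all 8 alternatives of floor, scaling and probe-set rule, though with the floor at the 75th percentile the log2 fold was a bound of -1.43.

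Tamoxifen alone left LIF at 1.12 times its untreated level, and with romidepsin present it was 1.2-fold lower for the combination. Both differences lie within or near the median disagreement of 2 probe sets of 1 gene. LIF has 1 probe set, so its own probe sets cannot be compared.

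IL6, the founding member of the family, was near the floor on every array. Its probe set 205207_at gave 73.1 in the combination, 69.7 with romidepsin, 132 with tamoxifen and 86.9 in untreated cells. The tamoxifen array was the highest, at 1.52 times the untreated signal, and the combination was 1.81-fold lower than tamoxifen alone. Neither reached 2-fold with the arrays as deposited; the second did with arrays centred on their medians, at a log2 fold of -1.0, and after quantile normalization, at -1.04.

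IL11, which acts through IL11RA and IL6ST, was slightly higher with romidepsin. Its probe set 206924_at had 160.5 in the combination, 153 with romidepsin, 117 with tamoxifen and 110.0 in untreated cells. Romidepsin alone was at 1.39 times the untreated level and the combination at 1.46 times, both short of 2-fold. The second probe set, 206926_s_at, was above the floor in the combination only, at 78.2.

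CSF1, the macrophage growth factor, was also low on both arrays with romidepsin at its brightest probe set. Probe set 209716_at gave 75.5 in the combination, 56.6 with romidepsin, 452 with tamoxifen and 449 in untreated cells. The romidepsin value was below the floor and the combination value just above it. The fall was at least 6.76-fold with romidepsin against untreated cells, 5.94-fold in the combination against untreated cells and 5.98-fold in the combination against tamoxifen alone. Tamoxifen alone was at 1.01 times the untreated level.

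The other CSF1 probe sets were dimmer and did not all share that pattern. Probe set 207082_at gave 13 in the combination, 39.4 with romidepsin, 117 with tamoxifen and 96.5 in untreated cells, so both arrays with romidepsin were below the floor and both without were above it. Its fall was at least 1.45-fold both for romidepsin and for the combination against untreated cells. Probe set 210557_x_at gave 69.5 in the combination, 27.3 with romidepsin, 84.2 with tamoxifen and 34.5 in untreated cells, above the floor on both tamoxifen-treated arrays only. Probe set 211839_s_at was below the floor throughout. Because the other probe sets are near or below the floor, the median over CSF1 probe sets fell by only 0.27 on the log2 scale with romidepsin, which is not a 2-fold fall. A floor at the 75th percentile also ended the call, at a log2 fold of -0.14.

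**Figure D1:**
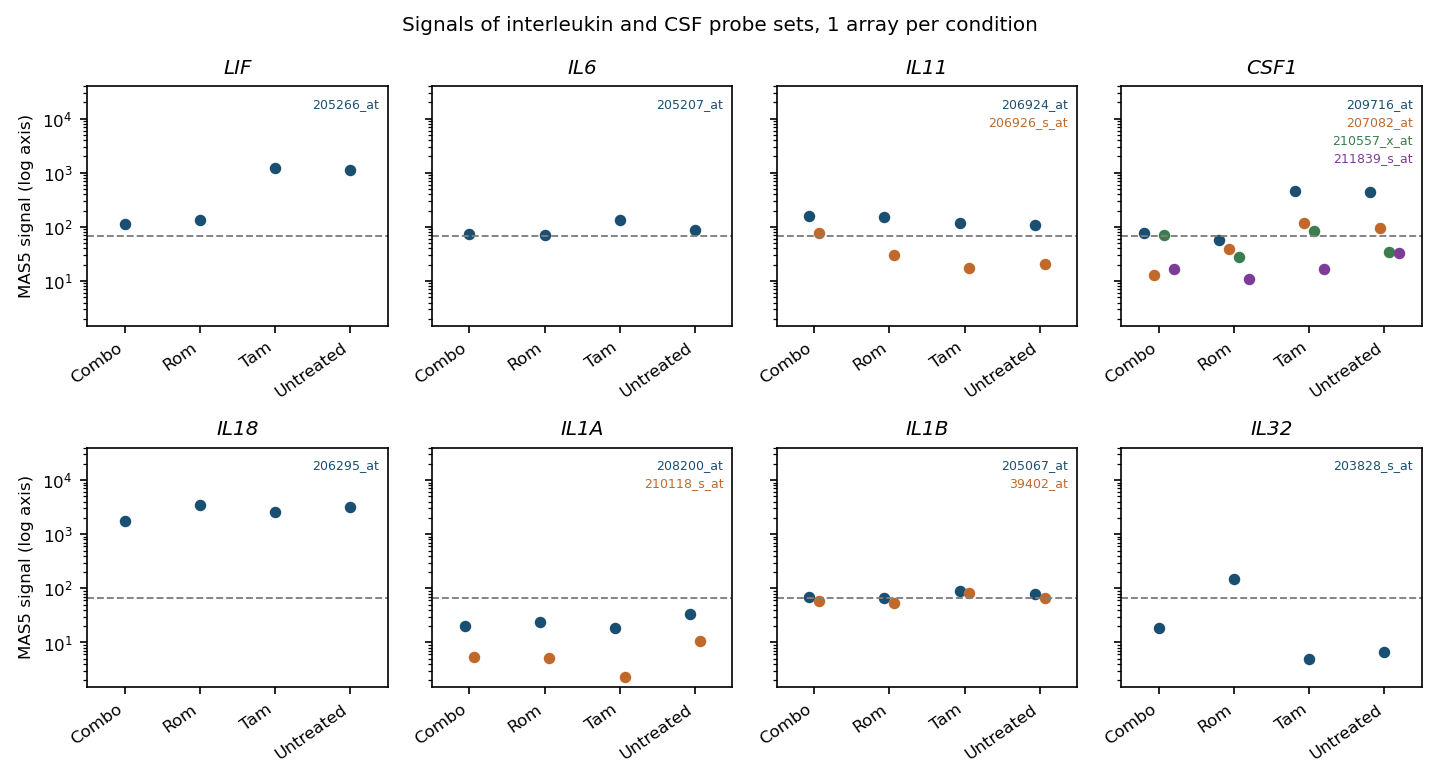
MAS5 signals of all 14 probe sets of the 8 genes (log axis) on the combination (Combo), romidepsin (Rom), tamoxifen (Tam) and untreated arrays, 1 point per probe set and array, coloured as the probe-set names; the dashed line is the floor of 66.4. LIF and the brightest CSF1 probe set are low on both arrays with romidepsin, IL18 is lowest in the combination, and IL32 is above the floor with romidepsin only.

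IL18, an IL-1 family cytokine that promotes interferon-gamma production, was well above the floor on all arrays. Its only probe set, 206295_at, had 1750.1 in the combination, 3473 with romidepsin, 2562 with tamoxifen and 3125 in untreated cells. The combination array was lowest, below both single drugs. Against romidepsin alone the combination had 1.98-fold less IL18 signal, just short of the 2-fold limit, and 1.79-fold lower than in untreated cells. Both passed 2-fold with arrays centred on their medians, the second at a log2 fold of -1.13. The first also did so after quantile normalization, and its log2 fold ranged from -1.09 to -0.68 over the alternatives. With a single drug, IL18 was at 1.11 times the untreated level for romidepsin and 1.22-fold lower for tamoxifen. The sign of both changed under another scaling: centring on medians gave romidepsin a log2 fold of -0.04, and spike-in scaling gave tamoxifen 0.07. The combination array, where IL18 was lowest, is also the one with the highest actin 3′ to 5′ ratio. Its GAPDH ratio, 1.07, equalled that of untreated cells. The part of RNA integrity in the IL18 difference was not tested.

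IL1A and IL1B, both ligands of the receptor IL1R1, were at or near the floor. IL1A gave 20.5 in the combination, 23.6 with romidepsin, 18.6 with tamoxifen and 33.2 in untreated cells at 208200_at, and at most 10.6 at 210118_s_at. It was therefore not measured in any comparison. IL1B gave 68.0 in the combination, 67.2 with romidepsin, 89.6 with tamoxifen and 79.4 in untreated cells at 205067_at. These 4 values lie close together, and the largest IL1B difference was 1.32-fold, between a lower combination array and a higher tamoxifen array. The second IL1B probe set, 39402_at, lay between 54.4 with romidepsin and 80.5 with tamoxifen, below the floor on both arrays with romidepsin.

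IL32, a proinflammatory cytokine unrelated in sequence to the other families, was the only gene of the 8 that rose in any comparison. Its probe set 203828_s_at had 18.5 in the combination, 147 with romidepsin, 4.99 with tamoxifen and 6.56 in untreated cells. The romidepsin array alone was above the floor. The rise was at least 2.21-fold with romidepsin against untreated cells, and the signal was at least 2.21-fold lower in the combination when set against romidepsin. Both calls rest on 1 probe set on 1 array, and on a probe set whose ID marks possible matches to several transcripts. Both were lost with spike-in scaling, where the log2 folds were 0.96 and -0.96, and with the floor at the 75th percentile.

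Promoter windows were taken from RefSeq (GRCh38.p14), 250 bases before to 50 after each annotated start; 6 of the 9 genes matched, with 8 windows in all, and LIF, CSF1 and IL18 did not. Both strands were searched for the AP-1 motif TGANTCA, the cyclic AMP response element TGACGTCA, the TATA box TATAAA and the NF-kappaB consensus. The windows of IL32, the gene that rose, and of IL6 and IL11, whose signals stayed within 2-fold, are shown because they differ in these motifs. Capitals mark the matches, which describe letters only and show no binding.
IL32 (chr16:3065153-3065452, plus strand): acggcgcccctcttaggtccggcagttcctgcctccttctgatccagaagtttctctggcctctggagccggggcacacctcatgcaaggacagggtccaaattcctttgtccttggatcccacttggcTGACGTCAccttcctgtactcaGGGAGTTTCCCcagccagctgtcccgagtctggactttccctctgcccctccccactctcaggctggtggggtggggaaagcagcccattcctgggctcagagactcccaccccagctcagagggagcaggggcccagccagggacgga
IL6 (chr7:22726950-22727249, plus strand): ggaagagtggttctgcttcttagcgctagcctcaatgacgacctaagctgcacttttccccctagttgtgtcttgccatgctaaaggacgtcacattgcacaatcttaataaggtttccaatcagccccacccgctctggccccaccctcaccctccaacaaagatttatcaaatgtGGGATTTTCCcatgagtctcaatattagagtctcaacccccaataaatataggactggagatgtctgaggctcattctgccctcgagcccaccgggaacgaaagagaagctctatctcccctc
IL11 (chr19:55370414-55370713, minus strand): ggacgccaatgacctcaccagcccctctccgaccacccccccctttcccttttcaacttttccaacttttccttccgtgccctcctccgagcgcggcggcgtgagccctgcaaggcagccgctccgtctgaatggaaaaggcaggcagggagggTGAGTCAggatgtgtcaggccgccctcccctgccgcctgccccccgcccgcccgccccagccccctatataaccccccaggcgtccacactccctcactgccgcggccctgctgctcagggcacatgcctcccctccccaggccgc
In IL32 the capitals are first the cyclic AMP response element, at position -121 from the start, and then NF-kappaB matches on both strands that overlap each other, at -99 and -98. The second annotated IL32 start had no match in its window. In IL6 the capitals are an NF-kappaB match at -73, and in IL11 an AP-1 match at -96. AP-1 letters also stood in both overlapping IL1A windows, 1 of which held a TATA box, and no motif was in the IL1B or CSF2 windows. Of all 35116 windows, 7.71% held the AP-1 motif, 1.85% the cyclic AMP response element, 11.5% the TATA box and 5.91% the NF-kappaB consensus.

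Romidepsin alone was compared with no treatment to describe the array with this drug by itself. Of 7 genes measured, 1 rose (IL32) and 2 fell (LIF and CSF1). Of all 13619 genes measured, 14.3% rose and 9.27% fell. The median log2 fold was -0.24 over the 7 genes and 0.06 over all genes. LIF and CSF1 were among the 40 lowest log2 folds of that comparison, CSF1 as a bound.

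Tamoxifen alone was compared with no treatment in the same way. Of 6 genes measured, 0 rose and 0 fell, where 3.70% of all 13051 genes rose and 1.07% fell. The largest difference was that of IL6, 1.52-fold higher. The median log2 fold was 0.13 over the 6 genes and 0.01 over all genes.

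In the combination against untreated cells, LIF and CSF1 fell and 0 of the 6 measured genes rose. Here 19.8% of all 13802 genes rose and 14.4% fell, and the medians were -0.54 over the 6 genes and 0.09 over all. These 3 comparisons share the untreated array, so their values are not independent of one another.

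What tamoxifen added to romidepsin was read from the combination against romidepsin. Only IL32 fell among 7 measured genes, and 0 rose, while 2.27% of all 13726 genes fell and 4.07% rose. IL18, at 1.98-fold lower, was next, and the log2 folds of the other 5 lay between -0.26 and 0.19. What romidepsin added to tamoxifen was read from the combination against tamoxifen. LIF and CSF1 fell and 0 of 6 rose, where 11.8% of all 13893 genes fell and 14.8% rose. The median log2 fold was -0.70 over the 6 genes and 0.05 over all genes.

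The shares over all genes depended on how arrays were scaled. For romidepsin against untreated cells rises were 60.7% of calls as deposited and 47.4% with arrays centred on their medians. For tamoxifen they were 77.5% as deposited, 48.0% with centring, 63.8% after quantile normalization and 98.3% with spike-in scaling. In the combination over untreated cells rises made up 57.9%, against 41.2% with centring and 72.8% with spike-in scaling. For the combination against romidepsin they were 64.2%, against 46.4% and 93.7%. Against tamoxifen the combination kept its split within 10 percentage points. Centring moved the median log2 fold of all genes by between -0.30 and -0.10, and spike-in scaling by up to 0.36. The falls of LIF and CSF1 passed 2-fold under each of the 3 scalings.

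**Figure D2:**
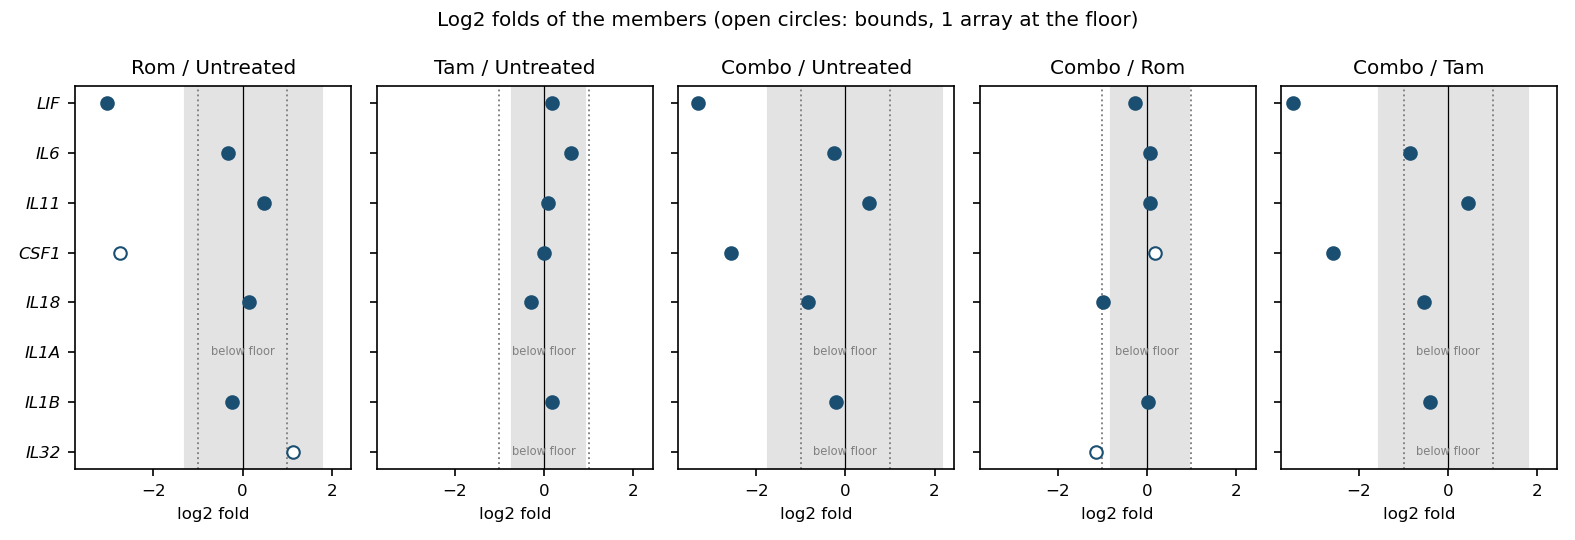
Log2 folds of the 8 genes at their brightest probe set in the 5 comparisons, 1 panel each; filled circles are measured on both arrays and open circles are bounds. Grey bands run between the 5th and 95th percentiles of all genes measured in that comparison and dotted lines mark 2-fold. LIF and CSF1 lie left of the band in the 3 panels where romidepsin is the difference or part of it, at -3.04 and -2.76 in the first.

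The 4 arrays form a square, so the combination can be set beside the sum of the single-drug log2 folds. For LIF the sum was -2.88 and the combination -3.30, a departure of -0.43 on the log2 scale. For IL18 the sum was -0.13 and the combination -0.84, a departure of -0.70. IL6 departed by -0.54, IL1B by -0.16 and IL11 by -0.03. None of these 5 genes, the ones above the floor on all arrays, departed by 2-fold. Among 11058 genes above the floor on all arrays the median departure was -0.04, the 5th and 95th percentiles were -0.78 and 0.59, and 6.71% lay at or below IL18. No residual spread is left to test a departure in this design.

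Receptors of these cytokines moved in both directions with romidepsin. Of 14 measured receptor genes out of 19 listed, 4 rose and 2 fell with romidepsin against untreated cells, and 6 rose and 3 fell of 16 in the combination. The shares over all genes were 14.3% and 9.27% with romidepsin, and 19.8% and 14.4% in the combination. Receptor genes below the floor in untreated cells, such as IL1R2 and CSF1R, could count only if they rose. IL1RAP, the accessory subunit that IL1R1 needs to signal, had 1744 in the combination, 1429 with romidepsin, 107 with tamoxifen and 94.0 in untreated cells. IL1RAP rose 15.2-fold with romidepsin and 18.6-fold in the combination over untreated cells. IL1R1 itself stayed between 521 and 806 on the 4 arrays. The decoy receptor IL1R2 rose at least 2.69-fold with romidepsin and at least 3.42-fold in the combination, the first short of 2-fold over the median of its probe sets.

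CSF1R, the receptor of CSF1, had 485 in the combination, 314 with romidepsin, 43.1 with tamoxifen and 20.1 in untreated cells. It was above the floor only on the arrays with romidepsin, at least 4.72-fold higher with romidepsin and at least 7.31-fold higher in the combination than in untreated cells. With the floor at the 75th percentile the combination call was lost, at a log2 fold of 0.25. CSF1R was then not measured for romidepsin against untreated cells. It has 1 probe set. CSF2RA was below the floor on all arrays at its brightest probe set.

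Among IL-6 family receptors, the shared subunit IL6ST had 15908 in the combination, 7782 with romidepsin, 9376 with tamoxifen and 5084 in untreated cells. Each single drug was under 2-fold, at 1.53-fold for romidepsin and 1.84-fold for tamoxifen, and the combination was 3.13-fold higher than untreated cells. LIFR, which binds LIF, was 2.53-fold higher in the combination and 1.76-fold higher with romidepsin. All 4 of its measured probe sets rose in the combination, but only 2 of 4 with romidepsin. The ligand-binding subunit IL6R had 118 in the combination, 195 with romidepsin, 895 with tamoxifen and 608 in untreated cells. IL6R was 5.17-fold lower in the combination and 3.12-fold lower with romidepsin than untreated, neither reaching 2-fold with the floor at the 75th percentile. IL11RA and OSMR, named after their values were seen, went opposite ways: IL11RA rose 2.99-fold with romidepsin and 3.28-fold in the combination, and OSMR, the oncostatin M receptor, fell 2.23-fold and 2.66-fold.

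With tamoxifen against untreated cells 2 of 13 measured receptor genes rose, IL1RL1 by at least 2.07-fold and CSF3R by at least 2.05-fold, both below the floor in untreated cells. Of all genes, 3.7% rose and 1.07% fell in that comparison. The combination against romidepsin had 1 rise, IL6ST at 2.04-fold, and 0 falls of 16, where 4.07% of all genes rose and 2.27% fell. The IL6ST rise was short of 2-fold with arrays centred on their medians, at a log2 fold of 0.93. It was also short over the median of its probe sets, at 0.57. Against tamoxifen the combination had 5 rises and 4 falls of 17, where 14.8% of all genes rose and 11.8% fell.

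Genes that process IL-1 family cytokines or act in the inflammasome fell or stayed within 2-fold with romidepsin. Of 9 measured out of 13 listed, 0 rose and 3 fell with romidepsin, where 9.27% of all genes fell, and 4 fell in the combination, where 14.4% did. Both counts include CAPN1, named after its values were seen, at 2.94-fold lower with romidepsin and 8.44-fold lower in the combination. Only 1 of its 2 measured probe sets fell in each of these comparisons. PYCARD, the adaptor that recruits caspase-1, had 311 in the combination, 644 with romidepsin, 993 with tamoxifen and 1315 in untreated cells. Its 2.04-fold fall with romidepsin was short of 2-fold with a pseudocount. The combination array was the lowest, 4.23-fold below untreated cells and 2.07-fold below romidepsin alone; the second fold fell short of 2-fold under 3 of 7 alternatives. GSDMD, the pore-forming protein through which IL1B and IL18 leave cells, was 2.55-fold lower in the combination than untreated, at 69.4 close to the floor, and short of 2-fold with a pseudocount. CAPN2, a calpain subunit gene, had 4691 in the combination and 7498 with romidepsin, against 21929 in untreated cells, 4.68-fold and 2.92-fold lower; the romidepsin fall was short of 2-fold over the median of its probe sets. CASP1 lay between 82.1 and 122 on the 4 arrays. CASP4, which acts in the noncanonical inflammasome, was the 1 gene of 10 that rose with tamoxifen, at 274 against 111 in untreated cells, 2.46-fold, but not with a pseudocount or over the median of its probe sets. Of all genes, 3.7% rose with tamoxifen. In the combination CASP4 was at 101. At its brightest probe set IL1RN, the IL-1 receptor antagonist, was above the floor with tamoxifen only, at 116.

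Signalling genes downstream of the receptors differed in direction with romidepsin. Of 17 measured out of 20 listed, 2 rose and 7 fell with romidepsin against untreated cells, 0 rose and 8 fell in the combination, and 0 changed with tamoxifen. Over all genes 14.3% rose and 9.27% fell with romidepsin, and 19.8% rose and 14.4% fell in the combination. With tamoxifen 3.7% rose and 1.07% fell. The 2 that rose with romidepsin, named after their values were seen, were SOCS1 at 2.24-fold and TOLLIP at 2.12-fold. All 4 measured TOLLIP probe sets rose, and 2 of 3 for SOCS1. In the combination each was 1.86-fold higher than in untreated cells. IRAK1, a kinase of the IL-1 receptor complex, had 3823 in the combination, 6495 with romidepsin, 15469.5 with tamoxifen and 25190.1 in untreated cells, and was 6.59-fold lower in the combination than untreated. MYD88, the adaptor of the same complex, was 3.01-fold lower with romidepsin and 3.73-fold lower in the combination. STAT5B, a transcription factor activated by CSF2 receptors among others, was 3.58-fold and 4.55-fold lower. STAT3 stayed between 2789 and 4915. SOCS3, which STAT3 induces and which restrains IL6ST signalling, had 1045 in the combination, 1553 with romidepsin, 2965 with tamoxifen and 4277 in untreated cells. SOCS3 was 2.75-fold lower with romidepsin and 4.09-fold lower in the combination than in untreated cells.

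**Figure D3:**
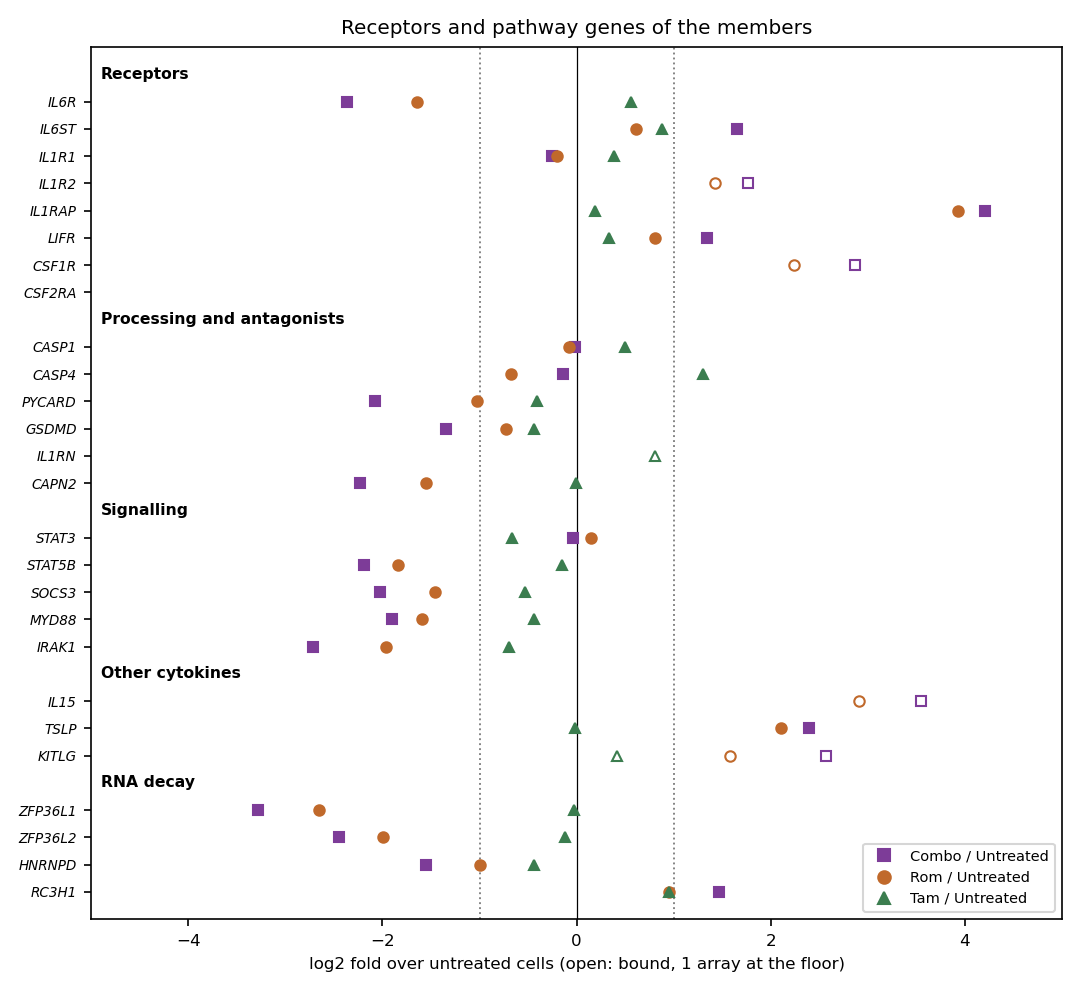
Log2 folds over untreated cells of the receptor and pathway genes named by the rule given below, at the brightest probe set of each. Squares are the combination, circles romidepsin and triangles tamoxifen. Open symbols are bounds, dotted lines mark 2-fold, and no symbol means both arrays were below the floor at that probe set. IL1RAP is farthest right, at 3.93 with romidepsin and 4.21 in the combination, and ZFP36L1 farthest left, at -3.28 in the combination.

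Other interleukin and growth factor genes were mostly below the floor, and those that changed rose. Of 27 with a probe set, 11 were measured for romidepsin against untreated cells, and 3 rose and 0 fell, where 14.3% of all genes rose. The counts were equal in the combination, where 19.8% rose. A gene below the floor in untreated cells could count only if it rose. IL15, which sustains lymphocytes, had 778 in the combination, 498 with romidepsin, 49.3 with tamoxifen and 35.5 in untreated cells, a rise of at least 7.5-fold with romidepsin and at least 11.7-fold in the combination, neither reaching 2-fold with the floor at the 75th percentile. TSLP, an epithelial cytokine, had 360.0 in the combination, 297 with romidepsin, 68 with tamoxifen and 68.8 in untreated cells. TSLP rose 4.32-fold with romidepsin and 5.23-fold in the combination. It has 1 probe set, just above the floor on the arrays without romidepsin. KITLG, the ligand of the receptor KIT, had 395 in the combination, 198 with romidepsin, 88.7 with tamoxifen and 29.5 in untreated cells. These 3 went up on the arrays where LIF and CSF1 went down. The KITLG rises were lost when the median over its probe sets was taken. With the floor at the 75th percentile neither TSLP nor KITLG was measured.

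Cytokine RNAs are short-lived, and RNA-binding proteins of the ZFP36 family speed their decay. Of 7 genes of RNA decay and stability measured, 0 rose and 3 fell with romidepsin, and 1 rose and 3 fell in the combination. Falls made up 9.27% of all genes with romidepsin and 14.4% in the combination, and rises 14.3% and 19.8%. ZFP36L1 had 75.8 in the combination and 118 with romidepsin, against 721 with tamoxifen and 737 in untreated cells. It was 6.26-fold lower with romidepsin and 9.72-fold lower in the combination than untreated, calls lost when the median over its probe sets was taken and with the floor at the 75th percentile. ZFP36L2 was 3.98-fold and 5.48-fold lower, with all 3 measured probe sets moving the same way. ZFP36 itself, named after its values were seen, did not fall with romidepsin. It had 9069.5 in the combination, 10082 with romidepsin, 6715 with tamoxifen and 7454 in untreated cells, all within 2-fold. HNRNPD, which also binds such RNAs, was 2.01-fold lower with romidepsin, a call lost under 4 of 8 alternatives, and 2.93-fold lower in the combination, a call lost over the median of its probe sets. RC3H1, which encodes the decay factor roquin, was 2.76-fold higher in the combination, but not over the median of its probe sets.

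Genes with the array pattern most like a given cytokine were found by the Euclidean distance between log2 signals, each centred on its mean over the 4 arrays, among 6261 genes that varied at least 2-fold. Closest to LIF were ITPRIPL2, at a distance of 0.13, MLPH at 0.25 and SMAD3 at 0.26. ITPRIPL2 had 269 in the combination, 287 with romidepsin, 2701 with tamoxifen and 2522 in untreated cells. Closest to CSF1 were PDE4B at 0.08, SEMA4B at 0.15 and NEXN at 0.20, and PDE4B too was below the floor with romidepsin alone. Closest to IL18 were BRF1 and SYMPK at 0.09 and IGFBP7 at 0.12. IL32 was nearest to CYP27A1, CKM and SENCR, all within 0.03, but with 3 of 4 arrays at the floor any gene reaching about 147 with romidepsin alone would match. A pattern over 4 arrays has few values, and the names depended on the settings: the same 3 genes were nearest to LIF under 3 of 8 alternatives.

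**Figure D4:**
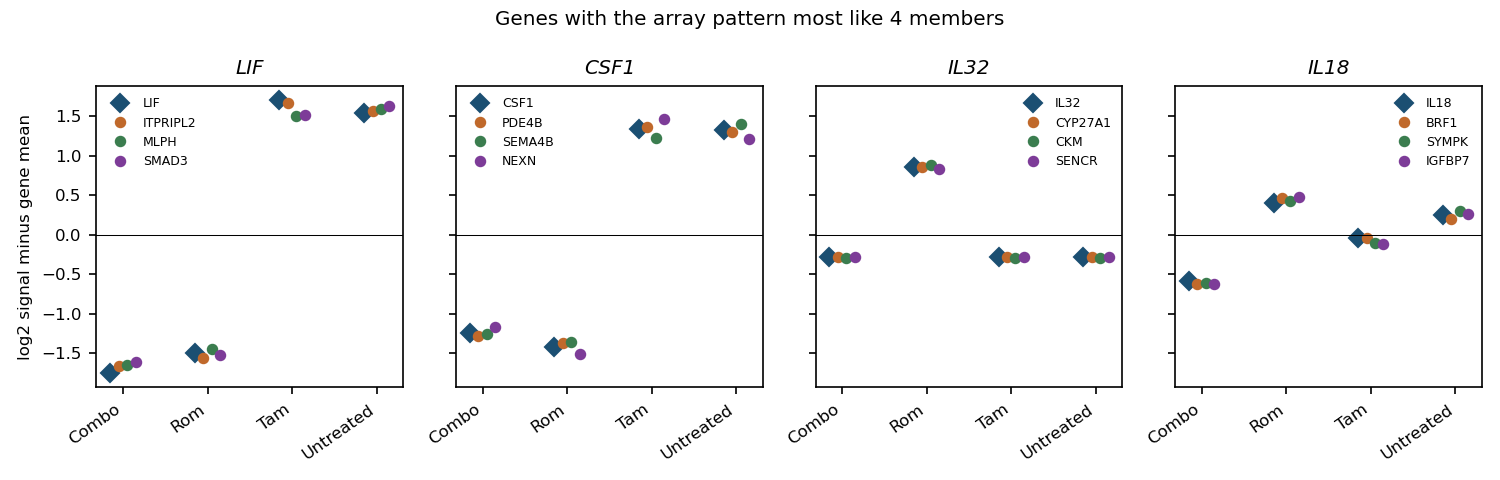
Log2 signals, after the floor, of LIF, CSF1, IL32 and IL18 (diamonds) and of the 3 genes nearest to each (circles), each minus its own mean over the 4 arrays; points are shifted sideways for visibility. The nearest genes of LIF lie within a Euclidean distance of 0.26 of it.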

How the data were processed

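RNA of Panc1 cells was labelled and hybridised per the labels' protocols, with 1 array per condition. The deposited values are probe-set signal intensities on a linear scale. Per the submitters' processing notes MAS5 made them; no source used here gives its version or scaling target. MAS5 scales each array on its own: after trimming 2% at each end, the mean deposited signal was 500.1 on all 4 arrays. Median signals lay between 59.5 and 73.0. Columns of other samples numbered 0.

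Of 54675 probe sets, 41097 name 1 gene in the platform annotation, 1801 several and 11721 none, beside 62 controls. Symbols were checked by Entrez ID against RefSeq (GRCh38.p14), matching 41043 and changing 0. Values under the median non-control signal, 66.4, were set to it before log2. With 1 array per group no test was made, and having only 4 arrays is what limits precision.

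The genes and lists were chosen with earlier results of these data known. Pathway genes named were, per list, up to 4 with the largest log2 fold among those changed at least 2-fold with all measured probe sets moving the same way, plus 10 always given: IL6ST, IL1R1, IL1RAP, IL1RN, CASP1, STAT3, SOCS3, CSF1R, CSF2RA and LIFR. Genes most like one of the 4 genes here that varied most were the 3 nearest. Listed genes without a probe set of their own were not analysed here.

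Alternatives were other floors, a pseudocount, 3 scalings, other probe-set rules and folds of 1.5 and 3. Calculations used Python 3.11.15, numpy 2.4.6, pandas 2.3.3 and matplotlib 3.10.9, and the calling steps were tested on simulated data.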

Additional observations from a re-analysis of the deposited data

Results flagged for a closer look

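For 2 genes above the floor on all arrays, a drug's effect had opposite signs without and with the other drug. IL18 had a log2 fold for romidepsin of -0.55 on top of tamoxifen and 0.15 on its own, a difference of -0.70. LIF had a log2 fold for tamoxifen of -0.26 on top of romidepsin and 0.17 on its own, a difference of -0.43. With 1 array per condition neither difference was tested. In each pair 1 or both folds are no larger than the median disagreement of 2 probe sets of a gene, 0.25 to 0.33. The sign of the IL18 fold for romidepsin alone was negative, at -0.04, with arrays centred on their medians, and the LIF fold for tamoxifen on top of romidepsin was 0.05 with spike-in scaling.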

How the results depend on the processing

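The fall of LIF kept its direction and stayed past 2-fold under all 8 alternatives of floor, scaling and probe-set rule in the 3 comparisons where it was called. With the floor at the 75th percentile its log2 fold was -1.43 for the combination and for romidepsin against untreated cells and -1.59 for the combination against tamoxifen, bounds set by that floor. With the floor at the 75th percentile, 1 gene of the 8 changed (lower) with romidepsin against untreated cells and 0 rose, 1 fell in the combination against untreated cells and 1 against tamoxifen, and 0 changed against romidepsin; fewer signals lie above that floor. Taking the median over probe sets left 1 fall in each of the comparisons of romidepsin, and of the combination, with untreated cells and of the combination with tamoxifen. Centring and quantile normalization each gave 2 falls in the combination against romidepsin, IL18 and IL32. Centring also added IL18 to the falls in the combination against untreated cells, and both added IL6 to those against tamoxifen. Spike-in scaling, and leaving out probe sets that may match several transcripts, each gave 0 rises with romidepsin and 0 falls in the combination against romidepsin; the second removes the only IL32 probe set. At a fold of 1.5, 1 gene rose with tamoxifen (IL6), 2 fell in the combination against romidepsin and 1 departed from the sum of single-drug folds (IL18), where 0 did at 2-fold; at a fold of 3, 0 rose with romidepsin and 0 fell in the combination against romidepsin. Causes of changes not named here were not tested. No called fold of the 8 genes, or of the pathway genes named by the stated rule, changed sign. The folds of IL11RA, OSMR, IL1RL1, CSF3R, CAPN1, SOCS1, TOLLIP, ZFP36, EPCAM and CDH1 were not followed over the alternatives. No paired analysis was possible because each group holds 1 array. Alternatives for pathway lists, departures and nearest genes were chosen after seeing the data. Signals near the floor limit how large a fall could be measured for IL6, IL1B and IL11.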
